A study of Mus musculus with 8 samples.

Results

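Ggt1 and 9 further genes of glutathione metabolism were examined in Th17 cells that carried either the WT or the K187R form of ROR-γt. The 10 genes were taken by symbol from a table of 22829 genes, and all 10 had a mean of at least 10 normalized counts over the 8 samples, as did 16982 genes of the table. They were Ggt1, Ggt5 and Ggt7, the γ-glutamyltransferase family, Gclc, Gclm and Gss, which make glutathione, Gsr, which recycles it, Gpx1 and Gpx4, which use it, and Slc7a11, which imports cystine. Ggt1 heads this set because it was selected on its difference between the K187R and WT samples in these same data, so that difference is given as a description without a test. The other 9 were chosen by their function, with earlier results of these data known.

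The cells were CD4+ T cells of ROR-γt-/- mice, purified from the spleen, so both groups lacked the endogenous receptor. The WT group, 4 samples, was reconstituted by lentivirus with WT-ROR-γt. The K187R group, also 4 samples, received K187R-ROR-γt, in which the lysine that takes up SUMO is replaced by arginine, and both were differentiated under Th17-inducing conditions. No untransduced group was analysed here, the age and sex of the mice are not given in the sources used here, and neither is whether a sample was 1 animal or a pool. The labels number the samples of each group from 1 to 4 without saying that they came from separate animals or cultures, so the p-values below measure the spread between these samples, which may be partly technical. RNA seq reads were counted per gene and divided by 1 size factor per sample, and these values are called normalized counts.

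Glutathione is a tripeptide of glutamate, cysteine and glycine and the most abundant thiol of animal cells. Glutamate-cysteine ligase, made of the catalytic subunit Gclc and the modifier subunit Gclm, joins glutamate to cysteine, and glutathione synthetase, Gss, adds glycine. Cysteine is often the limiting precursor, and the exchanger xCT, encoded by Slc7a11, brings it in as cystine. Glutathione peroxidases use glutathione to reduce peroxides, and glutathione reductase, Gsr, returns the oxidized form with electrons from NADPH. γ-Glutamyltransferase, a surface enzyme encoded by Ggt1, opens the breakdown of extracellular glutathione by removing its γ-glutamyl group. In activated T cells glutathione is known as a buffer for the oxidants that come with rapid growth.

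Reads on genes ranged from 52456804 to 74676721 per sample, and 3 reads, taken as the floor of detection, corresponded to 2.54 to 3.56 normalized counts. Floors and counts cover counting error only. The samples did not divide by group alone. Clustering on 16876 genes, without the genes described here and those of the pathway lists, placed replicates 1 and 3 of WT with replicate 1 of K187R in set 1, replicate 2 of WT with replicates 2 and 3 of K187R in set 2, and the replicates numbered 4 in set 3. Xist, the transcript of the inactive X chromosome, was at 17289.7, 17373 and 13564 normalized counts in the samples of set 2 and between 3.56 and 23.7 in the other 5. The T cell markers Cd3d, Cd3e, Cd3g, Cd4, Cd2 and Lck summed to 113877 to 123395 normalized counts in WT and 116385 to 131089 in K187R samples. Il17a, the cytokine gene of Th17 cells, was at 2087 to 4653 in WT and 3528 to 6075 in K187R samples. Markers of other cells were not at 0. The 9 myeloid markers, led by Lyz2, summed to 21555, 51884, 21984 and 63493 normalized counts in WT replicates 1 to 4 and to 36603, 45592, 49565 and 66619 in K187R replicates 1 to 4. The 5 B cell markers summed to 301 to 1220.0 in WT and 357 to 1596 in K187R samples, and the 2 CD8 markers to 403 to 1025 and 387 to 1141. The 4 stromal and endothelial markers summed to 3919 to 5247 in WT and 4541 to 6840.5 in K187R samples, and Pecam1, which blood cells also express, made up nearly all of it at 3881 to 5222 and 4505 to 6766, while Col1a1 was at most 181, Col1a2 at most 117 and Cdh5 at most 5.27. Of the 3 NK cell markers Klra8 was not listed, and the others summed to at most 30.5.

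The sequences around a start site show which known elements lie near these genes. Of them, 3 are given because they hold elements for factors that bear on the pathway. RefSeq windows of 250 bases before to 50 bases after a start site were matched for 7 of the 10 genes, 13 windows in all, on GRCm38.p6. Windows for Ggt5, Gclc and Gsr were not matched. Capitals mark matches on either strand to AGGTCA, the core element of ROR receptors, to TGACNNNGC, the core of the antioxidant response element bound by NRF2, and to TGATGNAA, an element of the kind bound by ATF4. Ggt1 has 4 such windows, and the first of them, on the plus strand at chr10:75563882-75564181, holds AGGTCA at 2 places and TGACNNNGC at 1, none of them overlapping. This window lies within the annotated gene, and its second AGGTCA and its TGACNNNGC fall after the start site. The Slc7a11 window, on the minus strand at chr3:50443564-50443863, holds TGATGNAA at 2 places, and the Gclm window, on the plus strand at chr3:122245307-122245606, holds TGACNNNGC at 1.
Ggt1: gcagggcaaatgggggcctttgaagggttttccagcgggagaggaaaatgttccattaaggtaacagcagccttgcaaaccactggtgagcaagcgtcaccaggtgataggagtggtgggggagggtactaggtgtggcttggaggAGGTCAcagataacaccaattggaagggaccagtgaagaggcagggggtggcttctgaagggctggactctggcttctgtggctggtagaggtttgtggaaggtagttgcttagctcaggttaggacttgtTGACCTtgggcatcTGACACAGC
Slc7a11: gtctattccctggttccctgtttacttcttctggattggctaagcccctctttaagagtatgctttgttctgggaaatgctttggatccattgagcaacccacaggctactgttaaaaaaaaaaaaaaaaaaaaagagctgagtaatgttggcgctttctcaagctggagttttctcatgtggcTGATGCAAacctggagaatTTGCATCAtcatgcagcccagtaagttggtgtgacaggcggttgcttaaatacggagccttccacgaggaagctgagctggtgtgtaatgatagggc
Gclm: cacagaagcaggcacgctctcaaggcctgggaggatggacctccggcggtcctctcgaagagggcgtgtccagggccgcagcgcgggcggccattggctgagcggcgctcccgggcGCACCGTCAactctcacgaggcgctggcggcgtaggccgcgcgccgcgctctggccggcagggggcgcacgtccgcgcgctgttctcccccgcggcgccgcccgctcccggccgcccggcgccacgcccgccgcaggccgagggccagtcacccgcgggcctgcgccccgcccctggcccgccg
AGGTCA was found in 3 of the 13 windows, those of Ggt1, Gss and Gpx4, and in 16.3% of all 32851 windows. TGACNNNGC was found in 4 of the 13, namely 3 of Ggt1 and that of Gclm, and in 12.4% of all windows. TGATGNAA was found in the Slc7a11 window alone among the 13, against 3.97% of all windows. A match is a description of the letters, and binding was not measured here.

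Levels were compared between genes only per length, as normalized counts per kb of exon, with the mean ± SD over the 8 samples. The length was that of all annotated exons of a gene merged, not of the transcript expressed, so the order depends on it. The peroxidases stood highest, with Gpx1, which reduces hydrogen peroxide, at 4052 ± 524 per kb and Gpx4, which reduces lipid peroxides, at 2657 ± 330.5 per kb. Gsr followed at 2202 ± 239 per kb and was below Gpx4 in 7 of the 8 samples, with overlapping ranges. Gclc stood at 1516 ± 140.4 per kb and its partner Gclm at 812 ± 162 per kb, and the ranges of these subunits did not overlap. Slc7a11 was at 310.3 ± 144 per kb and Gss at 172 ± 21.5 per kb, and this order held in 6 samples only. The γ-glutamyltransferases stood lowest. Ggt7 was at 114 ± 21.3 per kb, Ggt1 at 92.1 ± 36.1 per kb and Ggt5 at 61.0 ± 15.5 per kb. Ggt7 was above Ggt1 in 5 of the 8 samples. The means of Ggt7 and Ggt1 were 109 and 61.2 per kb in WT and 118 and 123 per kb in K187R samples. The SDs in K187R samples were 21.8 for Ggt7 and 21.2 for Ggt1. The order of these means differed through Ggt1, which was selected on this contrast, so nothing is read from it. Ggt1 was above Ggt5 in 8 of 8 samples although their ranges overlap.

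**Figure D1:**
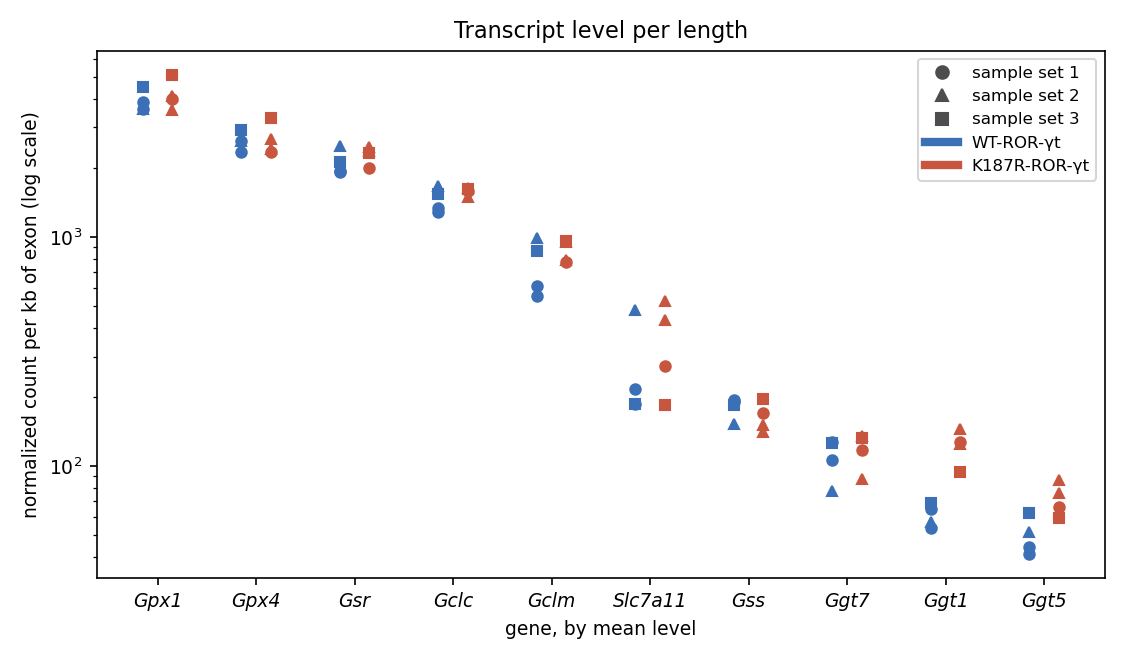
Normalized count per kb of exon on a log scale for each of the 10 genes, ordered by mean level, with WT samples in blue and K187R samples in red and the symbol giving the sample set. Gpx1 lies near 4052 per kb and the γ-glutamyltransferases near 61.0 to 114 per kb.

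The comparison of K187R with WT samples asks how the transcripts of cells differ when this lysine of ROR-γt is replaced by arginine. The paper does not exclude that the lysine is modified in other ways, such as by acetylation or methylation. Ggt1 had 183, 195, 222 and 234 normalized counts in WT replicates 1 to 4 and 436, 425, 495 and 321 in K187R replicates 1 to 4. No WT sample reached the lowest K187R sample, and K187R replicate 4 stood nearest to the WT range. The means were 209 ± 23.8 and 419 ± 72.4 (SD, n = 4), 2.01-fold apart, and the difference on the log2(normalized count + 1) scale was 0.99 with a standard error of 0.16 and a 95% interval of 0.63 to 1.35. Of the 10 genes, Ggt1 alone separated the groups in this direction, as did 1.47% of all genes tested, and none separated in the other direction, as did 0.989%. Since Ggt1 was selected on this contrast, nothing is read from that count, and the interval of Ggt1 is no test against 0. The lowest sample still held 154 reads on Ggt1.

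Within set 1 the K187R sample exceeded the WT samples by 1.11 on the log2 scale, within set 2 the difference was 1.23, and within set 3, the replicates numbered 4, it was 0.45. Since the groups of Ggt1 did not overlap, a higher K187R value within each set was fixed in advance and is no further result. The smallest difference was in set 3. The myeloid marker sums were largest in set 3, as were Lyz2, Itgam, Fcgr3 and Cd68 among the single markers. Csf1r, Cd14, C1qa and C1qb were instead highest in set 2, and Adgre1 overlapped between these sets. With samples of sets 1 and 3 alone the difference was 0.82. The part of the myeloid marker sums in the Ggt1 difference was not tested. In bulk samples fewer cells of a type and less RNA per cell cannot be told apart.

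**Figure D2:**
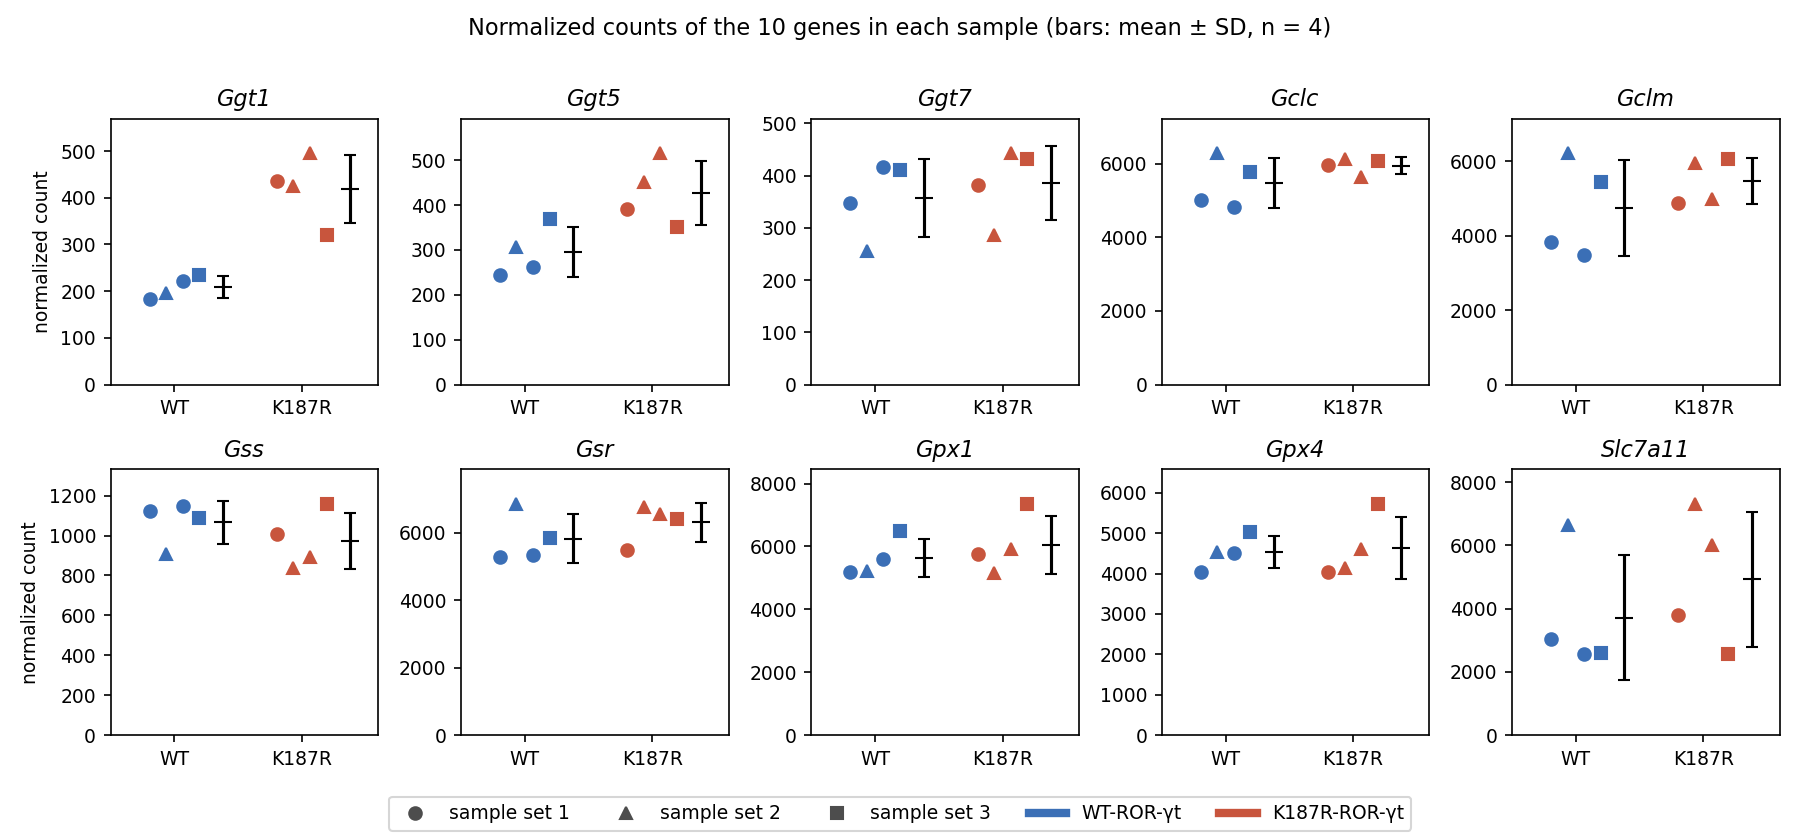
Normalized counts of the 10 genes in each of the 8 samples, with axes from 0, WT in blue, K187R in red, symbols for the 3 sample sets and bars for the mean ± SD (n = 4). The K187R samples of Ggt1 lie at 321 to 495, all above the WT samples at 183 to 234, while the other 9 genes overlap between groups and Slc7a11 follows set 2.

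Ggt5 encodes a related γ-glutamyltransferase that also acts on leukotriene C4. It had 245, 306, 262 and 369 normalized counts in WT replicates 1 to 4 and 392, 451, 515 and 351 in K187R replicates 1 to 4. The groups overlapped only through the replicates numbered 4, where the WT sample was above the K187R sample. The means were 296 ± 55.6 and 427 ± 71.5 (SD, n = 4), and the log2 difference was 0.53 with an interval of 0.15 to 0.92. This did not pass in limma (adjusted p = 0.921). By sample set the differences were 0.63 (set 1), 0.66 (set 2) and -0.07 (set 3). Ggt7, the third family member measured, had 347, 255, 416 and 410.4 normalized counts in WT and 382, 286, 442 and 431 in K187R samples. The replicates numbered 2 were the lowest of each group, and the log2 difference of 0.12 had an interval of -0.33 to 0.56 (limma, adjusted p = 0.947). Of its exonic bases 6.04% overlap Acss2 on the other strand, and since use of the strand in counting is not stated, those reads cannot be assigned.

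Ggt1 lies on mouse chromosome 10 at chr10:75561604-75586200 (GRCm38, plus strand), with 20 annotated transcripts, and Ggt5 follows on the same strand at chr10:75589340-75617200, 3140 bases beyond its end. Upstream, Lrrc75b at chr10:75550123-75560330 runs on the minus strand and starts 1274 bases from the annotated start of Ggt1, head to head with it. Genes within 100 kb were taken by position, not by how they moved, but the place was set by Ggt1, which was selected on this contrast. Their p-values and intervals are not free of that choice. Lrrc75b, a leucine-rich repeat gene, had 96.2, 111, 105 and 129.8 normalized counts in WT and 304, 297, 332 and 162 in K187R samples. As with Ggt1, its groups did not overlap, as for 1.47% of all genes with K187R higher. K187R replicate 4 of Lrrc75b was again nearest to the WT range. Its log2 difference was 1.26 (interval 0.73 to 1.78), which did not pass in limma (adjusted p = 0.558) and passed in DESeq2 on the recovered reads (adjusted p = 0.000239), the smallest adjusted p of its alternatives, which ran up to 0.99998. By sample set these were 1.59 (set 1), 1.498 (set 2) and 0.32 (set 3).

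Gucd1, whose start lies 43632 bases upstream, had 3105, 3367, 3219 and 3791 normalized counts in WT and 4079, 3969, 4306 and 3869 in K187R samples. These did not overlap either, as for 1.47% of all genes with K187R higher, though the gap between WT and K187R replicates 4 was small. The log2 difference of Gucd1 was 0.27 with an interval of 0.09 to 0.45 (limma, adjusted p = 0.921). Snrpd3, a core protein of the spliceosome next to Gucd1, had a log2 difference of -0.03 with an interval of -0.32 to 0.26 (limma, adjusted p = 0.980), and its direction turned under 5 of its alternatives. Gucd1 and Snrpd3 share 15.8% and 6.74% of their exonic bases with genes on the other strand. Beyond Ggt5, Susd2, a surface protein gene, had 112, 349, 145 and 141 normalized counts in WT and 199.95, 604, 706 and 138 in K187R samples, so that the 3 samples of set 2 were the highest, and its interval of -0.28 to 2.21 included 0. Cabin1, which encodes a calcineurin-binding protein, differed by 0.10 with an interval of -0.11 to 0.31. No exonic bases of Ggt1, Ggt5 or Lrrc75b overlap another gene, and none of the 75-base windows of Ggt1 or Ggt5 transcripts occurs in another gene, so by the annotation no reads of Ggt1 were shared with its neighbours.

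**Figure D3:**
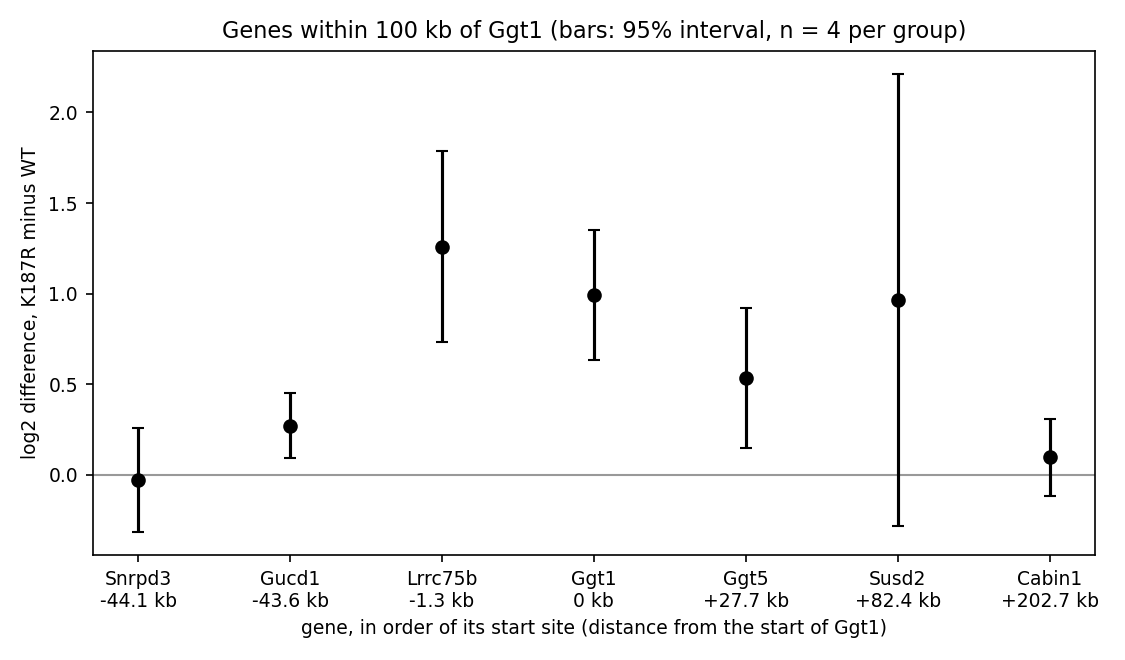
Log2 difference (K187R minus WT, n = 4 per group) with its 95% interval for Ggt1, Ggt5 and the 5 other tested genes whose bodies lie within 100 kb of Ggt1, in order of start site, with the distance of that site from the start of Ggt1 in kb. The intervals of Lrrc75b, Ggt1, Ggt5 and Gucd1 lie above 0 and those of Snrpd3, Susd2 and Cabin1 include 0. That of Ggt1, which was selected on this contrast, is no test, and the other genes were taken for their nearness to it.

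The genes with a pattern over the 8 samples most like that of Ggt1 were ranked by the mean absolute difference between their log2 values, each centred on its own mean. Il17re, which encodes a receptor subunit for IL-17C, was among the 5 nearest of 16981 genes, at a mean difference of 0.12, with 108, 109, 134 and 155 normalized counts in WT and 275, 228, 262 and 230.3 in K187R samples. Ampd1, an AMP deaminase gene, stood at 0.15, Gm37008 at 0.16 and Adgb at 0.16. The genes of this ranking were picked for likeness to a gene that separates the groups, so their separation of the groups is no result. Lrrc75b ranked 11 and Ggt5 ranked 55, while the other 8 genes of glutathione metabolism ranked between 2354 and 12684.

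Synthesis was described by its ligase, its synthetase and its precursor transporter. Gclc had 5022, 6279.8, 4826 and 5776 normalized counts in WT and 5958, 6126, 5625 and 6069.7 in K187R samples. WT replicates 1 and 3 were lowest, and the K187R samples lay within the WT range. Its log2 difference of 0.13 had an interval of -0.08 to 0.33 (limma, adjusted p = 0.921). Gclm had 3838, 6217, 3487 and 5451 normalized counts in WT and 4873, 5948, 5002 and 6054 in K187R samples. WT replicates 1 and 3 were again lowest, and these were also the samples with the lowest myeloid marker sums, 21555 and 21984. The part of other cells in the Gclm values was not tested. The log2 difference was 0.24 with an interval of -0.17 to 0.64 (limma, adjusted p = 0.921), and it ranged from 0.10 without WT replicate 3 to 0.38 without WT replicate 2. Gss had 1122, 906, 1146 and 1089 normalized counts in WT and 1007, 836, 891 and 1158 in K187R samples. The 3 samples of set 2 were the lowest, and the log2 difference was -0.14 with an interval of -0.42 to 0.15 (limma, adjusted p = 0.922). Of the exonic bases of Gss 15.4% overlap other genes, Acss2 among them.

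Slc7a11, the light chain of the cystine and glutamate exchanger, varied most among the 10 genes. It had 3028, 6659.6, 2582 and 2591 normalized counts in WT replicates 1 to 4 and 3814, 7307, 6007 and 2572 in K187R replicates 1 to 4. The 3 samples of set 2 lay at 6007 to 7307 and the other 5 at 2572 to 3814, so high and low samples were found in both groups. The K187R minus WT difference was 0.42 with an interval of -0.43 to 1.27 (limma, adjusted p = 0.922), and within the sets it was 0.45 (set 1), -0.01 (set 2) and -0.01 (set 3). With samples of sets 1 and 3 alone it was 0.20, without K187R replicate 2 it was 0.19 and without WT replicate 2 it was 0.74. The mean over set 2 was 1.20 above that of the other samples on the log2 scale. Among the 10 genes, Slc7a11 and Gsr were above the other 5 samples in every sample of set 2 and Gss was below, against 8.46% and 5.65% of all genes tested that did so. Set 2 is also that of high Xist, and what sets it apart was not tested.

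**Figure D4:**
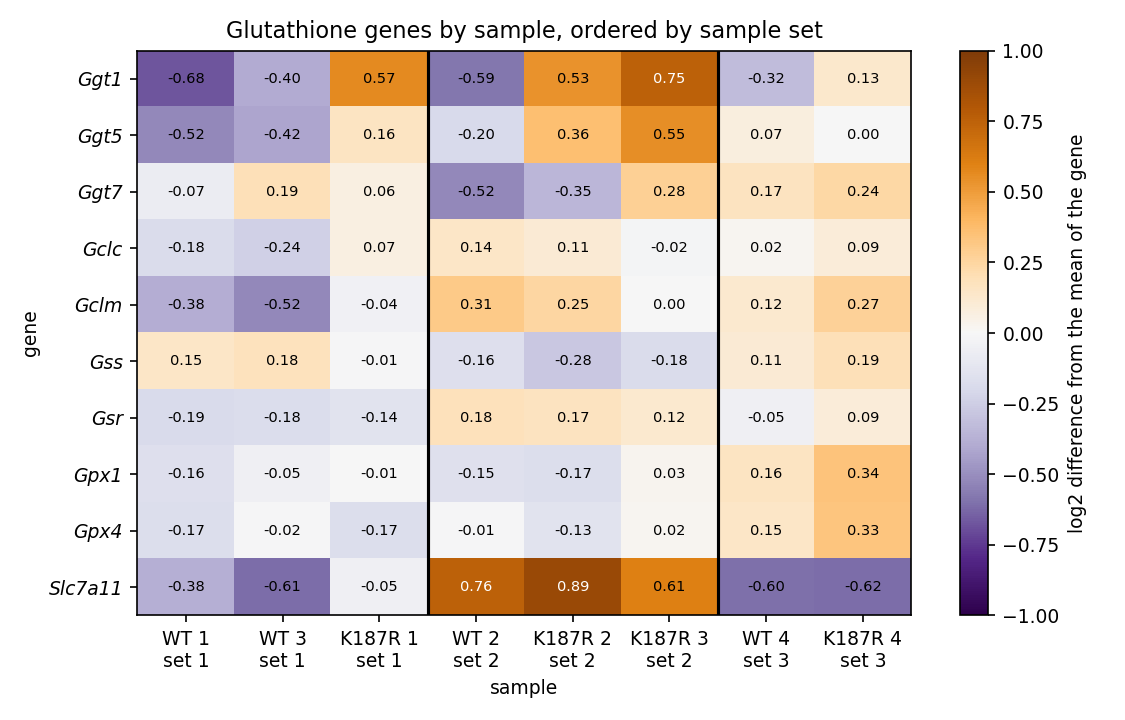
Log2 value of each of the 10 genes in each sample, minus the mean of the gene over the 8 samples, with samples ordered by sample set and set borders in black. Slc7a11 runs from 0.61 to 0.89 above its mean in set 2 and below it elsewhere. Ggt1, selected on this contrast, divides by group within each set because its groups do not overlap.

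For the enzymes that recycle and use glutathione every interval from the fit on all 8 samples included 0. Gsr had 5285, 6848, 5327 and 5839 normalized counts in WT and 5474, 6773, 6551 and 6414 in K187R samples, highest in set 2, with a log2 difference of 0.12 and an interval of -0.12 to 0.35 (limma, adjusted p = 0.922). Gpx1 had 5199.8, 5219, 5603 and 6481 normalized counts in WT and 5773, 5171, 5918 and 7348 in K187R samples. The replicates numbered 4 were the highest of each group, and the difference of 0.10 had an interval of -0.16 to 0.36 (limma, adjusted p = 0.927). Gpx4 had 4049.6, 4525, 4504 and 5038 normalized counts in WT and 4042, 4149.7, 4617 and 5719 in K187R samples. The replicates numbered 4 were highest here too, and the difference of 0.02 had an interval of -0.24 to 0.29 (limma, adjusted p = 0.985). Of the 75-base windows of Gpx4 transcripts 29.8% also occur in pseudogenes, so its level is uncertain where reads of several matches were dropped or split.

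Limma called 0 of the 9 genes tested, Ggt1 being left out of these counts, and 0 of all 16982 (0.00%), with 746 genes at an unadjusted p under 0.05, Ggt5 among them as the only one of the 9. EdgeR on the recovered reads also called 0, with 729 at an unadjusted p under 0.05. DESeq2 called 35 (0.206%), 18 higher and 17 lower in K187R, and none of the 9. The median log2 difference over the 10 genes was 0.12, against -0.01 over all genes tested, and 9 of the 10 were higher in K187R, against 48.4% of all genes. Both the median and the count include Ggt1, which was selected on this contrast, so nothing is read from them. For the 8 genes other than Ggt1 and Ggt5 the differences ran from -0.14 to 0.42 and each interval from the fit on all 8 samples included 0. Without WT replicate 2, the WT sample of set 2, set 2 held K187R samples alone. In that fit 1445 of 16965 genes had an unadjusted p under 0.05 in limma. The unadjusted p in limma was then 0.0399 for Gclm, 0.0438 for Slc7a11 and 0.0475 for Gclc. None of these passed after adjustment (adjusted p = 0.573, 0.579 and 0.581). An interval of this width does not show that those genes were alike in the groups, since for Gclm it reached 0.64 and for Slc7a11 1.27.

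**Figure D5:**
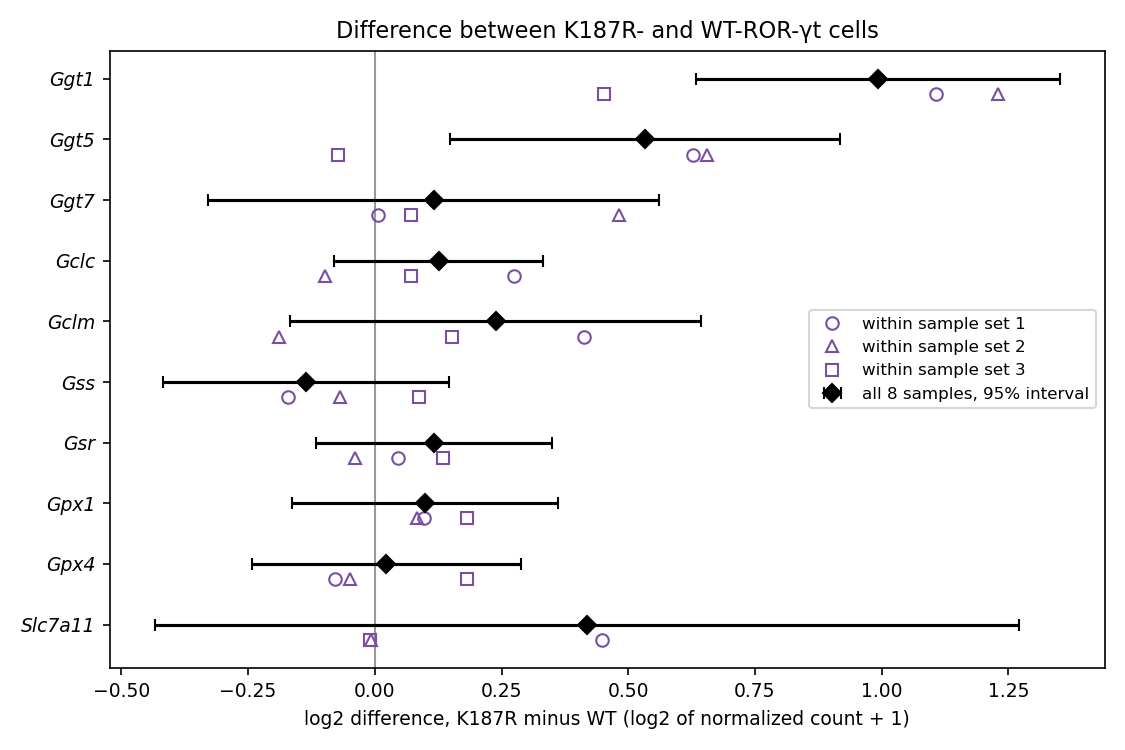
Log2 difference, K187R minus WT, for the 10 genes, with the 95% interval from limma over the 8 samples as black diamonds and bars, and the difference within each of the 3 sample sets as open symbols. The interval of Ggt1, which was selected on this contrast, runs from 0.63 to 1.35 and is no test. That of Ggt5 runs from 0.15 to 0.92, the other 8 include 0, and the set 3 value of Ggt5 is -0.07.

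Other genes of the pathway were taken from 6 lists, 109 genes in all, of which 96 were listed with a mean of at least 10. Limma called 0 of the 96 in either direction, as it called 0 of all genes, and 4 of them had an unadjusted p under 0.05. None of the 96 separated the groups, as did 1.47% and 0.989% of all genes with K187R higher and lower. The median log2 difference was 0.05, with 58 higher and 38 lower in K187R.

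Breakdown of glutathione inside the cell and in the γ-glutamyl cycle had 8 tested genes, 4 higher and 4 lower, with a median of 0.01. Anpep, a surface aminopeptidase that cleaves the dipeptide left by γ-glutamyltransferase, had 435, 741, 471 and 469.7 normalized counts in WT and 664, 1116, 1359 and 508 in K187R samples. The samples of set 2, WT replicate 2 among them, were the highest. The log2 difference of Anpep was 0.71 ± 0.31 (SE), and it did not pass in limma (adjusted p = 0.921). Chac1, which cleaves glutathione in the cytosol, differed by -0.35 ± 0.23, and it was lowest in set 2. Cndp2, a dipeptidase that splits cysteinylglycine, was the most abundant of the list, at 10734 to 16324 in WT and 10229 to 13883 in K187R samples, and differed by -0.21 ± 0.15. Lap3, a cytosolic aminopeptidase, differed by -0.06 ± 0.12. Ggt6, Dpep1 and Dpep3 were not tested because they were not listed or had a mean under 10.

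Glutathione S-transferases, which attach glutathione to other molecules, had 20 tested genes, 16 higher and 4 lower in K187R, with a median of 0.21. Gstp1, the most abundant, was at 1930.5 to 2228 in WT and 1957 to 2357 in K187R samples and differed by 0.09 ± 0.09 (SE), and Gsto1 differed by 0.00 ± 0.11. Gstp3 had the smallest p among the higher genes, with 877, 1146, 932 and 1115 normalized counts in WT and 1091, 1345, 1592 and 1134 in K187R samples. Its samples of set 2 were the highest, and its difference of 0.34 ± 0.14 did not pass in limma (adjusted p = 0.921). Gstz1 differed by -0.10 ± 0.14. Gstm1, singled out after its values were seen, had 447, 1744, 486 and 2401 normalized counts in WT and 816, 1651, 1908 and 2519.6 in K187R samples. It was low in the 3 samples of set 1, where the myeloid marker sums of 21555, 21984 and 36603 were also lowest, and the part of other cells in it was not tested.

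Peroxiredoxins, thioredoxins and the other peroxidases had 21 tested genes, 11 higher and 10 lower, with a median of 0.04. Prdx1, a peroxiredoxin, was at 18117 to 23862 in WT and 20212 to 22357 in K187R samples, and Prdx6 at 12395 to 14226 and 12765 to 14368. Txnrd1, the cytosolic thioredoxin reductase, differed by 0.20 ± 0.09 (SE) and Prdx4 by -0.27 ± 0.17, and neither passed in limma (adjusted p = 0.921 for each). Enzymes that supply NADPH had 12 tested genes, 10 higher and 2 lower, with a median of 0.06. G6pdx, the entry enzyme of the pentose phosphate pathway, was at 3479 to 4149 in WT and 3723 to 5122 in K187R samples and differed by 0.20 ± 0.11, while Tkt, a transketolase, differed by 0.07 ± 0.07 and the malic enzyme Me2 by -0.21 ± 0.13.

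Precursor supply and transport had 17 tested genes, 7 higher and 10 lower, with a median of -0.01. Glud1, the glutamate dehydrogenase of mitochondria, had 22329.6, 18527, 21849 and 18041 normalized counts in WT and 17553, 15832, 15749.8 and 18149.6 in K187R samples. WT replicates 1 and 3 were the highest, the groups overlapped through the replicates numbered 4, and the difference of -0.26 ± 0.09 (SE) did not pass in limma (adjusted p = 0.921). Abcc4, an exporter, differed by 0.13 ± 0.07. The amino acid carriers Slc38a2 and Slc38a1 were the most abundant, and differed by -0.18 ± 0.09 and 0.09 ± 0.09. The list of the transcription factors NRF2 and ATF4 and their other targets had 18 tested genes, 10 higher and 8 lower, with a median of 0.01. Nqo1, a classical NRF2 target, had 203, 394, 231 and 588 normalized counts in WT and 485, 382, 382 and 741 in K187R samples, with a difference of 0.57 ± 0.35. Psph, an enzyme of serine synthesis, differed by -0.23 ± 0.13, and the ferritin genes Fth1 and Ftl1 by 0.17 ± 0.16 and 0.23 ± 0.25. Across the 6 lists, 9 genes were above and 11 below the other 5 samples in every sample of set 2, of 96 tested, against 8.46% and 5.65% of all genes tested, and nothing particular to the pathway is read from these counts.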

How the data were processed

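RNA was isolated from Th17 cells derived from ROR-γt-/- CD4+ T cells, and poly-A enriched libraries were sequenced as pairs of reads. Trimming by the authors was done in Cutadapt, alignment to GRCm38 in HiSat2, counting in featureCounts against GENCODE M15, and differential expression in DESeq2. The submitters' processing notes also name bcl2fastq. What the authors deposited is a signal: every gene's reads over the size factor of the sample. Whether counting used the strand, and how it treated reads with several matches, is not given in the sources used here.

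Whole reads were recovered for 100% of the values (largest deviation 0.000483 of a read, tolerance 0.01). Because the deposited values are not counts, limma (lmFit, eBayes with trend) was run on the log2 of the normalized count plus 1. Genes entered when they averaged 10 or more, 16982 in all, with Benjamini-Hochberg adjustment over all of them and a threshold of 0.05. Adjusted p-values in the text are from this fit unless another tool is named. It has no term for the sample sets, so the spread between them counts as error in its p-values. Alternatives were edgeR and DESeq2 on the recovered reads, a filter at a mean of 50 or none, pseudocounts of 0.5 or 5, median centring or quantile normalization in place of the size factors, eBayes with no trend, the replicate number as a block, the sample set as a factor, and each sample left out. A fit on sets 1 and 3 alone was added after seeing the data. Methods were tested on simulated data with the same dispersion for every gene and without sample sets. How they behave with the sets seen here was not tested. Sample sets came from average-linkage clustering of centred log2 values.

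The members, lists and tests were chosen with earlier results of these data known. Named genes were all 10 members, of each list the 2 with the highest mean and the smallest p in each direction, the 5 profiles nearest to Ggt1, genes with bodies within 100 kb of it, and Il17a as a check of the cells. Some results of this rule are not reported here. Coordinates and exon lengths are from GENCODE M21, which holds 22784 of the 22829 identifiers, and promoter windows from RefSeq. Fits used DESeq2 1.42.0, edgeR 4.0.16 and limma 3.58.1 in R 4.3.3. Tables and figures used pandas 2.3.3, numpy 2.4.6, scipy 1.17.1 and matplotlib 3.10.9 in Python 3.11.15.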

Additional observations from a re-analysis of the deposited data

Results flagged for a closer look

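Slc7a11 in WT replicate 2 was at 6659.6 normalized counts, while the other 3 WT samples lay between 2582 and 3028. The gap, 0.891 of the range of the group, exceeds the 95% limit of Dixon's test for 4 samples. This was 1 of 20 groups examined, and chance alone passes the limit in about 1 of 20. WT replicate 2 is the WT sample of set 2, and the K187R samples of that set were at 7307 and 6007.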

How the results depend on the processing

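The call of 0 of the 9 genes tested (all but Ggt1), and of 0 of the 96 other pathway genes, was the same under every alternative run. The direction of the difference held for 8 of the 10 genes under all 20 alternatives. The log2 difference of Ggt1 ranged from 0.82 to 1.01 under the alternatives on all or 5 samples and from 0.91 to 1.11 with a sample left out, and that of Ggt5 from 0.37 to 0.54 and from 0.44 to 0.65. With a sample left out, Ggt7 ranged from -0.0367 (WT replicate 2) to 0.252, Gpx4 from -0.0833 (K187R replicate 4; -0.0298 for WT replicate 1) to 0.0835, and Snrpd3 from -0.152 to 0.0436 (WT replicate 1; 0.0101 for WT replicate 2 and 0.0205 for K187R replicate 3). Snrpd3 also turned to 0.00047 with the sample set as a factor and to 0.0463 with sets 1 and 3 alone. The causes were not tested.

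The number of the 10 genes whose groups did not overlap ranged from 1 to 2 with a sample left out. Ggt5, higher in K187R, joined Ggt1 without WT replicate 4 or without K187R replicate 4, where 5.29% and 3.74% of all genes separated in that direction, and Gclc joined it with sets 1 and 3 alone, which made 2, where 7.35% did. Fewer samples separate more genes, so nothing is read from these counts. Without WT replicate 4 limma called 4 of all genes, none of them among the 9. With the sample set as a factor it called 1, with 1394 of all genes at an unadjusted p under 0.05 in limma. Same-numbered samples had correlations of their deviations of 0.59, 0.66, -0.09 and 0.63, so the number 3 did not pair and the numbers were taken as names. With the replicate block limma called 0 of the 9 genes, 0 of the 96 and 0 of all genes, with 2046 at an unadjusted p under 0.05 against 746 without the block, and the unadjusted p of Gclm was 0.0387 (adjusted p = 0.409). Slc7a11 had at least 2548 reads in each sample and spread over 2.84-fold between them.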
